A study of Mus musculus with 4 samples.

Results

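Runx2 occupancy was examined at 10 mouse genes that restrain the cell cycle, in chromatin of MC3T3-E1 subclone 4, a clonal preosteoblast line from C57BL/6 calvaria. The Cip/Kip inhibitors Cdkn1a, Cdkn1b and Cdkn1c, the INK4 inhibitors Cdkn2a, Cdkn2b, Cdkn2c and Cdkn2d, and the pocket proteins Rb1, Rbl1 and Rbl2 were taken as a list of names, out of 22359 protein-coding genes of GENCODE M1. A Runx2 peak was counted at a gene when it shared at least 1 bp with the gene body widened by 20 kb on each side, a stretch called the window here. Cells were harvested for ChIP-Seq with a Runx2 antibody while proliferating (day 0), while depositing matrix (day 9) and while mineralizing (day 28). They were kept in medium free of ascorbic acid, and differentiation was induced with ascorbic acid and beta-glycerophosphate. The labels name no genetic manipulation in any group. The reads of 2 biological replicates were pooled for each time point before peaks were called against input DNA of day 9 cells, which left 1 peak list per time point. Differences between the 3 lists therefore have no replicate error and were not tested.

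The windows of the 10 genes held 18 of the 25457 peaks at day 0 (0.0707%), 35 of 60596 at day 9 (0.0578%) and 29 of 40330 at day 28 (0.0719%). Merging peaks that shared at least 1 bp gave 39 regions, out of 67703 in the whole series. Positions are in mm9 (NCBIM37), counted from 1. Peaks were ranked by the percentile of their deposited score within their own list, because scores were not compared across lists. The lists held peaks at osteoblast genes: Runx2 itself had 13, 24 and 19 peaks at days 0, 9 and 28, Alpl, the tissue-nonspecific alkaline phosphatase, had 6, 25 and 22, and the osteocalcin gene Bglap2 had 0, 12 and 10.

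Progress from G1 into S phase depends on cyclin-dependent kinases that phosphorylate the pocket proteins, which in the unphosphorylated state hold E2F transcription factors in check. INK4 proteins bind Cdk4 and Cdk6 and keep D-type cyclins from them, whereas Cip/Kip proteins bind assembled cyclin and kinase complexes, above all those of Cdk2. Osteoblasts leave the cell cycle as they mature, and Runx2, the transcription factor required for osteoblast formation, binds DNA through its Runt domain, for which TGTGGT is a core motif.

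Sequences at the peaks. The core motif TGTGGT lay within 50 bp of the centre of at least 1 day 9 peak at 4 of the 10 genes. For each of these genes the highest-ranked such peak is shown from 50 bp before to 50 bp after its centre, to let the motif be seen in its setting. All were read 5′ to 3′ from the NCBIM37 reference on the strand of the gene. The motif is in capitals, as TGTGGT or as its reverse complement ACCACA. They lie upstream of Cdkn1c (chr7:150652342-150652442, minus strand), in coding exon 3 of Cdkn2c (chr4:109333931-109334031, minus strand), upstream of Rb1 (chr14:73739456-73739556, minus strand) and upstream of Rbl2 (chr8:93589318-93589418, plus strand).
Cdkn1c: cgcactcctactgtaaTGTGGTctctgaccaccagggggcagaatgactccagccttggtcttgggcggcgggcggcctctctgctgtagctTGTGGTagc
Cdkn2c: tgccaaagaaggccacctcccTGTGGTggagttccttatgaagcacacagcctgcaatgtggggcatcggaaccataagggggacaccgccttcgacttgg
Rb1: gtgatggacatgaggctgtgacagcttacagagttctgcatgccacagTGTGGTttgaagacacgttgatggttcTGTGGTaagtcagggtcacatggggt
Rbl2: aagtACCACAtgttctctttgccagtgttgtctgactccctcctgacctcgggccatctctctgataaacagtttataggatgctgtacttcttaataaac

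None of these 4 peaks overlapped a promoter. Only 2 genes had TGTGGT upstream of the TSS inside a promoter peak of day 9, and those stretches are shown for contrast, since in both the motif lies away from the peak centre. In Cdkn1a (chr17:29227168-29227297, plus strand) the 3 motifs sit in a repeat rich in TG, under a peak at the 22.5th percentile of the day 9 list. In Cdkn2c (chr4:109339844-109339889, minus strand) a single motif lies in the upstream part of the promoter peak.
Cdkn1a upstream: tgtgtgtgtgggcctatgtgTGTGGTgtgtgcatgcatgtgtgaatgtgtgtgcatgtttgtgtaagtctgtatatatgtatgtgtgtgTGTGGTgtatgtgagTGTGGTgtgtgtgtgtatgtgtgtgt
Cdkn2c upstream: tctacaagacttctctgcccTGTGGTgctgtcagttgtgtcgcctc

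Number of peaks per gene. Runx2 peaks lay at 6 of the 10 genes at day 0, 8 at day 9 and 8 at day 28. Among all protein-coding genes, 65.0% had a peak in the window at day 0, 77.0% at day 9 and 71.2% at day 28, so that the counts for the 10 genes lay near this background. Cdkn2a and Cdkn2b had no peak in any list, as did 21.1% of all genes. The median gene of the 10 had 1.5, 3.00 and 2.50 peaks at days 0, 9 and 28, against 1, 2.00 and 2.00 over all genes.

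Per 100 kb of window, the medians of the 10 genes were 2.77, 5.71 and 4.47 peaks, and those of all genes were 1.69, 3.49 and 2.33. Most peaks over the 3 lists lay at Rbl1 (4, 6 and 8 at days 0, 9 and 28), Cdkn2c (3, 7 and 5) and Cdkn1a (2, 7 and 4). By peak number Rbl1 was at the 94.9th percentile of all genes at day 28, and Cdkn1a and Cdkn2c both at the 84.1st at day 9. These percentiles do not allow for the width of the window. Rbl1 had 8.11 peaks per 100 kb at day 28, Cdkn2c 10.8 and Cdkn1a 8.04. Of the 8 genes with peaks, 5 had their most peaks at day 9 (Cdkn1a, Cdkn2c, Cdkn2d, Rb1 and Rbl2), whereas Cdkn1b had its most at day 0 (5, 3 and 3), Rbl1 had its most at day 28, and Cdkn1c had 0, 1 and 1.

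**Figure D1:**
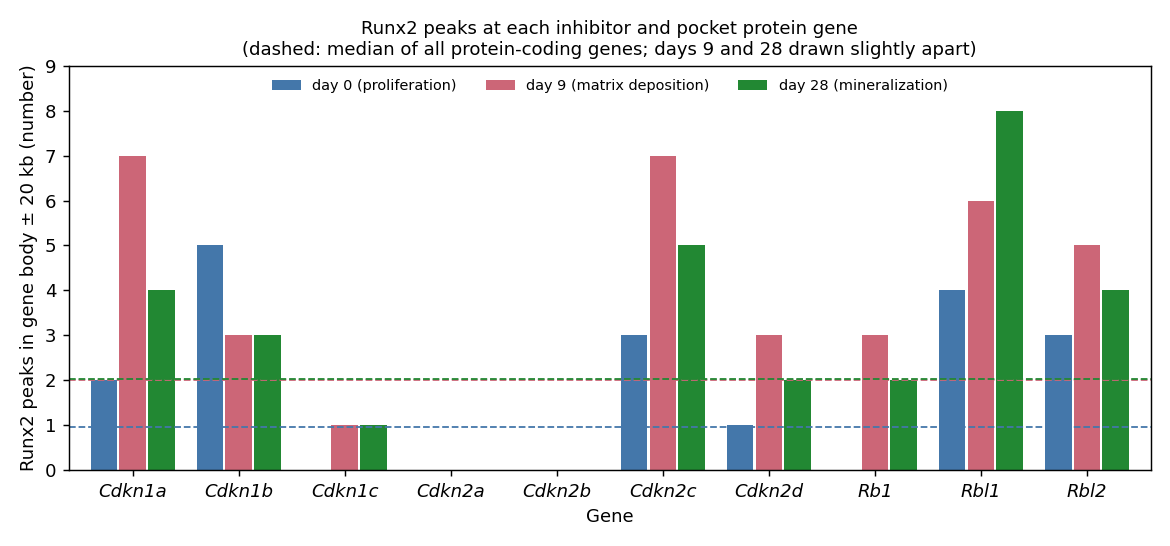
Bars give the number of Runx2 peaks in the gene body widened by 20 kb (vertical axis) for each of the 10 genes and each time point, with dashed lines at the median of all protein-coding genes. Cdkn2a and Cdkn2b have no bar, and the tallest bar is Rbl1 at day 28 with 8 peaks.

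The number of peaks at the 10 genes was 1.94 times as high at day 9 as at day 0, and 0.829 times as high at day 28 as at day 9. For the whole lists these ratios were 2.38 and 0.666. When the same number of top-scoring peaks was taken from each list, 25457, the 10 genes had 18, 21 and 22 peaks at days 0, 9 and 28, so the excess of day 9 over day 28 was no longer present. The outermost peak inside the windows was a day 0 peak of Cdkn1b that began 17969 bp beyond the gene (80.6th percentile), and the nearest peak left outside was a day 9 peak 20198 bp from the same gene (71.1st percentile).

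Promoter peaks. A promoter was taken from 1000 bp upstream to 150 bp downstream of the TSS of any protein-coding transcript. At day 0, 5 of the 10 genes had a promoter peak, against 42.7% of all genes. At days 9 and 28, 7 of the 10 had one, against 51.6% and 50.1% of all genes, respectively. By family, promoter peaks were found at days 0, 9 and 28 for 2, 2 and 2 of the 3 Cip/Kip genes, 1, 2 and 2 of the 4 INK4 genes and 2, 3 and 3 of the 3 pocket protein genes.

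Cdkn1a, Cdkn1b, Cdkn2c, Rbl1 and Rbl2 had a promoter peak at all 3 time points (5 of 10, against 41.5% of all genes). Cdkn2d and Rb1 had one at days 9 and 28 but not at day 0 (2 of 10, against 7.05%). Cdkn1c, Cdkn2a and Cdkn2b had none in any list (3 of 10, against 46.4%). These shares rest on any overlap of peak and promoter: with the peak centre required inside the promoter, 2, 6 and 5 genes were left at days 0, 9 and 28. The shares of all genes were not recomputed under this stricter rule, so these counts have no background beside them.

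**Figure D2:**
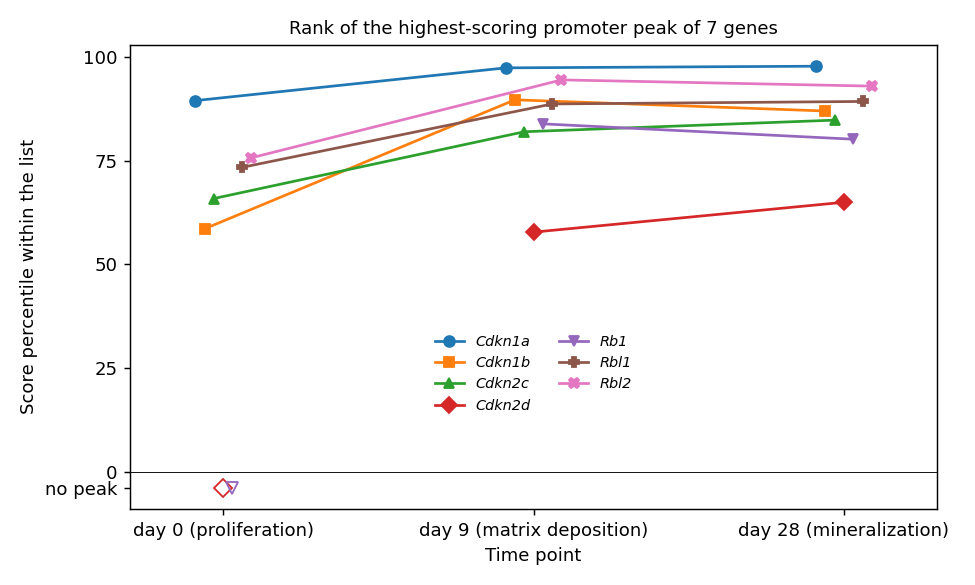
The vertical axis gives the percentile of the highest-scoring promoter peak within its own list and the horizontal axis the time point, with 1 line per gene and open symbols where a list has no promoter peak. Cdkn2d and Rb1 are without a peak at day 0, and the other 5 genes rank higher at days 9 and 28 than at day 0.

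When the highest promoter peak of each gene was compared, Cdkn1a ranked highest, at percentiles 89.5, 97.4 and 97.8 of the lists of days 0, 9 and 28, and Cdkn2d ranked lowest at days 9 and 28, at percentiles 57.8 and 65.0. Over all peaks at the 10 genes the median percentiles for days 0, 9 and 28 were 62.2, 72.2 and 71.0. Of the 16 regions that held a peak at every time point, 15 had a higher percentile at day 9 than at day 0, and 15 at day 28 than at day 0. Over all regions with peaks in both lists, 74.1% of 19730 had a higher percentile at day 9 than at day 0, and 67.0% of 19976 at day 28 than at day 0. The lists differ in length, and a longer list that adds weak peaks raises the percentile of the regions it shares with a shorter one.

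The ranks were therefore also taken among the regions with a peak in both lists, a choice made after seeing the data. By that measure 14 of the 16 regions ranked higher at day 9 than at day 0, against 52.3% of all such regions. For day 28 against day 0 the count was also 14 of 16, against 52.8%. Of the 16 regions, 5 overlapped a promoter of the gene itself, and others overlapped promoters of the neighbours Faf1, Kri1, Samhd1 and Aktip. By either measure the shares of all regions were not divided by promoter overlap. Whether promoter regions account for the contrast was therefore not tested. From day 9 to day 28 the direction depended on the measure. By percentile of the whole list, 9 of 26 regions were higher at day 28 (34.6%, against 28.6% of 32903), and 4 of these 9 stood at the tied top score of 3100 in both lists, so that their percentiles differed only through the number of tied peaks. Without the ties 5 of 22 were higher. Among regions with a peak in both lists, 18 of 26 ranked higher at day 28, or 14 of 22 without the ties, and no direction is drawn from this step.

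Persistence of regions. Of the 39 regions at the 10 genes, 16 held a peak in all 3 lists (41.0%, exact binomial 95% interval 25.6% to 57.9%). The share was 30.04% among the 53263 regions in the windows of all protein-coding genes and 27.4% among all regions. A further 10 regions were occupied at days 9 and 28 (25.6%), 8 at day 9 alone (20.5%, 9.30% to 36.5%), 3 at day 28 alone and 2 at day 0 alone. The share at day 9 alone was 33.8% in the windows of all genes. The interval for regions with all 3 time points held the share of all genes, and it covers counting error only.

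The 2 regions of day 0 alone both lay in the window of Cdkn1b, and the 3 regions of day 28 alone all lay in that of Rbl1. No region at the 10 genes was shared by days 0 and 9 alone or by days 0 and 28 alone, classes that held 1.61% and 1.77% of the regions in the windows of all genes. With centres required within 250 bp of each other instead of any overlap, the share with all 3 time points was 35.7%.

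**Figure D3:**
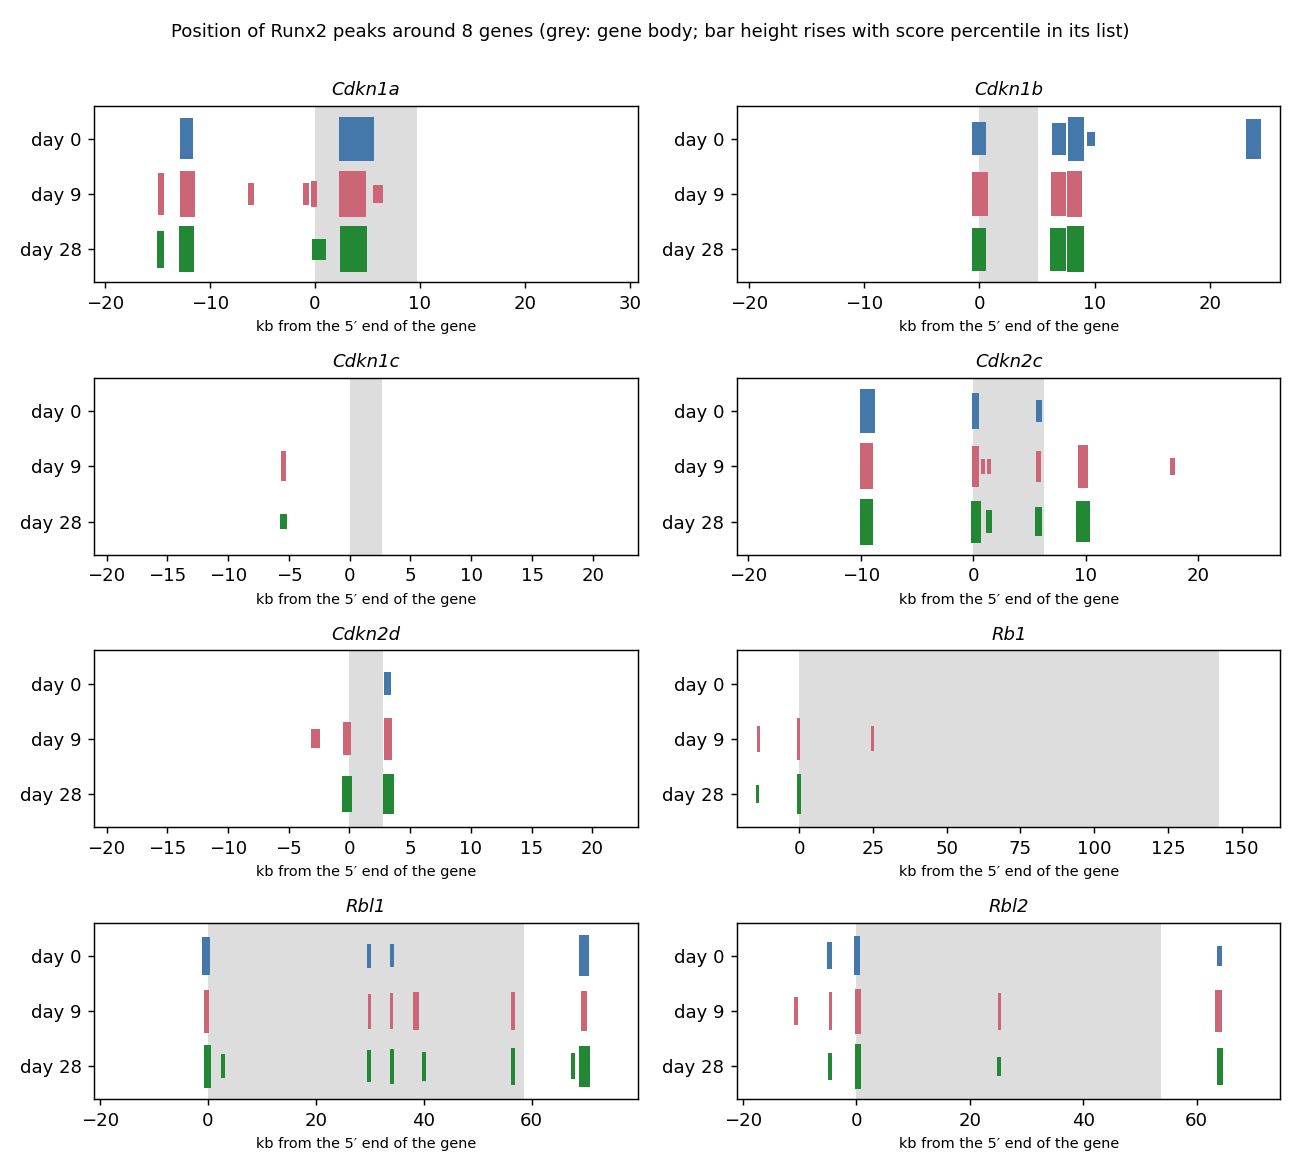
Each panel shows 1 of the 8 genes with peaks, with distance in kb from the 5′ end of the gene on the horizontal axis, time points on the vertical axis, the gene body in grey, and bars as wide as the peak (widened where too thin to see) and taller for a higher score percentile. The 5 genes with promoter peaks at all 3 time points have bars in all 3 rows near 0 (Cdkn1a within the gene body), and Rb1 has an empty day 0 row.

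Cip/Kip genes. Cdkn1a (ENSMUSG00000023067, chr17:29227924-29237667, plus strand) encodes p21, a mediator of cell cycle arrest by p53. Its annotated transcripts start at 3 positions, and the highest promoter peak lay over the TSS at 29230717, with its centre in intron 1 of the transcript that starts there. That peak was at chr17:29230220-29233536 at day 0 (score 927), chr17:29230256-29232800 at day 9 and chr17:29230299-29232927 at day 28, the last 2 at the tied top score of 3100. All 3 peaks covered this TSS. The TSS at 29227924 was covered by weaker peaks, at percentile 37.0 of day 9 (chr17:29227559-29228166, score 188) and 20.6 of day 28 (chr17:29227604-29228933, score 151), with no peak at day 0. Another peak was centred 829 bp upstream of it at day 9 (chr17:29226800-29227391, score 139, percentile 22.5). The TSS at 29235152 had a promoter peak at day 9 alone (chr17:29233447-29234361, score 121, percentile 14.0).

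A second strong region of Cdkn1a lay upstream, with centres 12245, 12111 and 12253 bp before the nearest Cdkn1a TSS at days 0, 9 and 28 and percentiles of 82.1, 97.4 and 97.8. The peaks were at chr17:29215037-29216321, chr17:29215115-29216512 and chr17:29214953-29216390, the last pair at the tied top score. The region covered the TSS of Gm16197, a noncoding transcript on the opposite strand, whose start lay 227, 93 and 235 bp from the centres. Noncoding starts were looked up only after these peaks had been seen. Farther upstream of Cdkn1a, a region of days 9 and 28 had percentiles of 83.5 and 70.0, and a day 9 peak 6098 bp upstream was at percentile 26.4.

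Cdkn1b (ENSMUSG00000003031, chr6:134870419-134875531, plus strand) encodes p27, whose breakdown by the Skp2 ubiquitin ligase accompanies entry into S phase. Its promoter peak spanned the TSS at every time point (chr6:134869753-134871026 at day 0, chr6:134869748-134871152 at day 9 and chr6:134869752-134871014 at day 28), with scores of 336, 1826 and 1566 and percentiles of 58.6, 89.7 and 87.0. Beyond the 3′ end of the gene were a pair of further regions with peaks in all 3 lists. The nearer had its centre 6923 bp from the TSS at day 0 and percentiles of 55.1, 91.6 and 87.8. The farther had its centre 8365 bp from the TSS at day 0, with percentiles of 91.3, 97.4 and 97.8, and was the highest-ranked region of Cdkn1b in each list (chr6:134878091-134879477, chr6:134877979-134879333 and chr6:134878043-134879452).

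No protein-coding or noncoding TSS of the annotation lay in the farther region, although its sequence was rich in CpG, with an observed to expected ratio of 0.89, 0.95 and 0.92 at the 3 peak centres. The nearer region was likewise rich in CpG, with ratios of 0.83, 0.86 and 0.88. The regions of day 0 alone at Cdkn1b had their centres 9714 and 23747 bp from the TSS, at percentiles of 1.23 and 80.6. The former lay close to the threshold of the list and the latter well above it. The latter ended at chr6:134894833, and peaks of the later lists lay shortly beyond it without sharing a base. They were at chr6:134895729-134896484 at day 9 (percentile 71.1) and chr6:134895829-134896683 at day 28 (percentile 31.5). Both lay just outside the window, 20198 and 20298 bp from the gene, and were not counted.

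Cdkn1c (ENSMUSG00000037664, chr7:150644255-150646955, minus strand) encodes p57 and is an imprinted gene. It had no peak at day 0, when the nearest peak was 87210 bp from its TSS. A single region 5437 bp upstream held its day 9 peak (chr7:150652162-150652623, score 254, percentile 48.6) and its day 28 peak (chr7:150652085-150652647, score 110, percentile 5.53). The day 9 centre carried 2 copies of TGTGGT, as printed for Cdkn1c above. No peak overlapped its promoter.

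INK4 genes. Cdkn2c (ENSMUSG00000028551, chr4:109333481-109339794, minus strand) encodes p18. The promoter of the TSS at 109339794 held a peak in all 3 lists (chr4:109339263-109339885 at day 0, chr4:109339324-109339933 at day 9 and chr4:109339131-109339985 at day 28), with scores of 407, 1089 and 1392 and percentiles of 65.9, 82.0 and 84.8. The second TSS, at 109337977, had promoter peaks of low rank only, at percentiles 1.32 (chr4:109338213-109338594) and 1.69 (chr4:109338714-109339096) at day 9, both with a score of 102, and 25.5 at day 28 (chr4:109338156-109338674, score 168). A peak over coding exon 3, the last of the gene, was present throughout, at percentiles of 23.2, 51.8 and 44.6, and its centre held TGTGGT at days 9 and 28.

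The highest-ranked peaks in the Cdkn2c window were not at the gene itself. They lay over the start of Faf1, which encodes a Fas-associated factor, with centres 13, 88 and 123 bp from the Faf1 TSS, and at −9412, −9487 and −9522 bp from the Cdkn2c TSS. The peaks, at chr4:109348542-109349871, chr4:109348697-109349865 and chr4:109348729-109349904, had percentiles of 92.5, 97.4 and 97.8. A region 7945 bp downstream of the nearest Cdkn2c TSS, at percentile 88.9 at day 9 and 80.4 at day 28, covered starts of the noncoding gene 9630013D21Rik. A day 9 peak 15866 bp downstream was at percentile 12.0.

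Cdkn2d (ENSMUSG00000066860, chr9:21092907-21095653, minus strand) encodes p19INK4d, which is distinct from the ARF protein of Cdkn2a. Its promoter had no peak at day 0, a peak at day 9 (chr9:21095542-21096156, score 343, percentile 57.8) and a peak at day 28 (chr9:21095417-21096294, score 569, percentile 65.0), with centres 196 and 202 bp upstream of the TSS. The highest peak of its window lay just past its 3′ end at the start of Kri1, with centres 86, 89 and 33 bp from the Kri1 TSS, positions of chr9:21092228-21092775, chr9:21092178-21092831 and chr9:21091992-21092904, and percentiles of 29.1, 84.4 and 79.2. A day 9 peak 2792 bp upstream of Cdkn2d ranked low, at percentile 15.2.

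Cdkn2a and Cdkn2b. Cdkn2a (ENSMUSG00000044303, chr4:88920377-88940557, minus strand) encodes p16 and, from another start and reading frame, the ARF protein, and Cdkn2b (ENSMUSG00000073802, chr4:88952198-88956941, minus strand) encodes p15. The 2 genes are neighbours with overlapping windows, so that their lack of peaks is not a pair of independent observations. Both lay in a single stretch of 279848 bp without a peak of any list, between peaks that end at chr4:88774389 and begin at chr4:89054238, which also held Mtap, a gene of methionine salvage.

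From the Cdkn2b TSS the nearest peak was 186652 bp away at day 0, 97297 bp at day 9 and 182552 bp at day 28. The peaks that bound the stretch were of middle or low rank, at percentile 34.6 (day 9) and 18.8 (day 28) on the Mtap side and 50.1 (day 9) on the other. A peak-free stretch at least this long was found around 3820 of the 22359 genes (17.1%), and the median over all genes was 22.8 kb.

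The stretch held 180 copies of TGTGGT, 43 in the window of Cdkn2a and 19 in that of Cdkn2b, compared with 44 in that of Cdkn1a and 27 in that of Cdkn1b. Unknown bases made up 51182 bp of it, 50000 in a single run, and they filled 32.0% of the window of Cdkn2b but 0.166% of that of Cdkn2a. No peak can be called in unknown bases. The lists hold no read counts, so a lack of Runx2 binding and a lack of mapped reads cannot be told apart here, and the number of copies of this locus in the cell line was not measured.

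**Figure D4:**
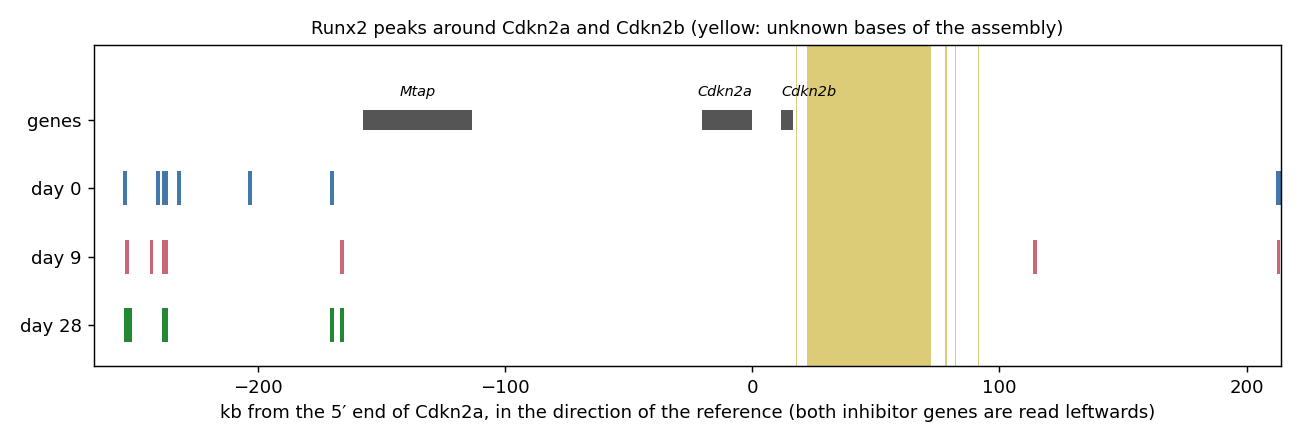
The horizontal axis gives the distance in kb from the 5′ end of Cdkn2a in the direction of the reference, the top row gives genes and the lower rows the Runx2 peaks of each time point, with unknown bases of the assembly in yellow. No peak of any list lies between the day 9 and day 28 peaks left of Mtap and the day 9 peak at the right.

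Pocket proteins. Rb1 (ENSMUSG00000022105, chr14:73583480-73725629, minus strand) encodes the retinoblastoma protein. It had no peak at day 0, when the nearest lay 113893 bp from its TSS, although its window of 182150 bp was the widest of the 10. At day 9 its promoter peak was at chr14:73725325-73726084 (score 1224, percentile 83.9), and at day 28 at chr14:73724976-73726246 (score 1101, percentile 80.2), with centres 75 bp upstream and 18 bp downstream of the TSS. Around these centres 78.8% and 80.8% of bases were G or C, the highest values among the peaks of the 10 genes. A region 13877 bp upstream ranked lower, at percentile 36.0 at day 9 and 13.1 at day 28, and carried 2 and 1 copies of TGTGGT near its centres. A day 9 peak in intron 2 of 27 was at percentile 32.9.

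Rbl1 (ENSMUSG00000027641, chr2:156971629-157030270, minus strand) encodes p107, a pocket protein found above all in cycling cells. Its promoter peak was present throughout (chr2:157029874-157031256 at day 0, chr2:157029982-157030908 at day 9 and chr2:157029594-157030953 at day 28), with scores of 502, 1701 and 1801 and percentiles of 73.4, 88.7 and 89.3. A pair of regions in intron 14 also held peaks in all 3 lists, at percentiles of 27.6, 68.0 and 63.1 for the one and 31.7, 63.5 and 54.0 for the other. A peak in intron 21 was called at days 9 and 28, at percentiles of 72.8 and 71.0, and another in intron 16 at day 9 alone, at percentile 74.7. The 3 regions of day 28 alone lay in introns 1 and 16 and downstream, at percentiles of 31.7, 45.4 and 36.5. For those in intron 16 and downstream, the nearest TSS was that of the neighbour Samhd1, 29138 and 1616 bp from the centres. Samhd1 also had the nearest TSS for the peaks in intron 21 and the day 9 peak in intron 16.

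Downstream of Rbl1, a region over the start of Samhd1, which encodes a dNTP hydrolase, held peaks with percentiles of 81.8, 81.2 and 83.4, with centres 245, 188 and 389 bp from the Samhd1 TSS. At day 0 its peak, at chr2:156959702-156961466, was the highest-ranked of the window. It was also the single region of the 16 whose percentile was not higher at day 9 than at day 0.

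Rbl2 (ENSMUSG00000031666, chr8:93593956-93647743, plus strand) encodes p130, the pocket protein that prevails in quiescent cells. Its promoter peak extended into coding exon 1 (chr8:93593639-93594617 at day 0, chr8:93593754-93594785 at day 9 and chr8:93593662-93594880 at day 28) and was the highest of its window in each list, with scores of 541, 2826 and 2329 and percentiles of 75.7, 94.5 and 93.0. A region about the sequence printed for Rbl2 above, 4646 bp upstream at day 0, held peaks throughout, at percentiles of 39.6, 72.2 and 39.1, and 2, 1 and 3 copies of TGTGGT lay within 50 bp of the centres. Peaks in intron 9 were called at day 9 (percentile 70.5) and day 28 (16.3), and a day 9 peak 10565 bp upstream was at percentile 40.8. The last region with peaks in all 3 lists lay at the start of Aktip, with percentiles of 17.2, 87.1 and 71.0.

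Motif and base composition. TGTGGT was searched on both strands, and lay within 50 bp of the centre in 2 of 18 peaks at day 0 (11.1%, exact binomial 95% interval 1.38% to 34.7%), 5 of 35 at day 9 (14.3%, 4.81% to 30.3%) and 6 of 29 at day 28 (20.7%, 7.99% to 39.7%). Over the whole lists the shares were 16.0%, 25.3% and 20.9%, each within the interval of the 10 genes. In flanking windows 450 to 550 bp from the centre, 3, 4 and 3 of the peaks at the 10 genes held the motif (16.7%, 11.4% and 10.3%). Over the whole lists the flank shares were 12.8%, 14.0% and 13.4%. The windows on both sides of the centre were searched together, each as wide as the centre window. The flank shares thus rest on more sequence than the centre shares and are not directly comparable with them.

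The motif was divided by position. At peaks that overlapped the promoter of any protein-coding gene, 0 of 9, 0 of 16 and 1 of 13 held it at days 0, 9 and 28, against 4.80%, 6.19% and 5.20% in the lists. At the other peaks 2 of 9, 5 of 19 and 5 of 16 held it, against 22.2%, 30.2% and 26.8%. The counts of 0 allow shares of up to 33.6% at day 0 and 20.6% at day 9 by the exact interval. The day 28 promoter peak with the motif was the weak one at the upstream TSS of Cdkn1a.

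The promoter peaks of day 9 had a median of 65.3% G and C and a CpG ratio of 0.79, the other peaks 51.3% and 0.24. In the whole day 9 list the values were 65.1% and 0.80 for promoter peaks and 51.1% and 0.21 for the others. Upstream of the TSS, TGTGGT was found in 4 of the 15 stretches of 1000 bp that precede a TSS of the 10 genes (26.7%). Over all genes, 47.7% of 45961 such stretches held it. No interval was computed for this share, and no difference is drawn from it. The 4 stretches belonged to Cdkn1a (4 copies and 1 copy before its first and last TSS), Cdkn2b (1 copy) and Cdkn2c (1 copy). Stretches of 1 gene overlap in part, and a match of letters is a description of the sequence, not a site.

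**Figure D5:**
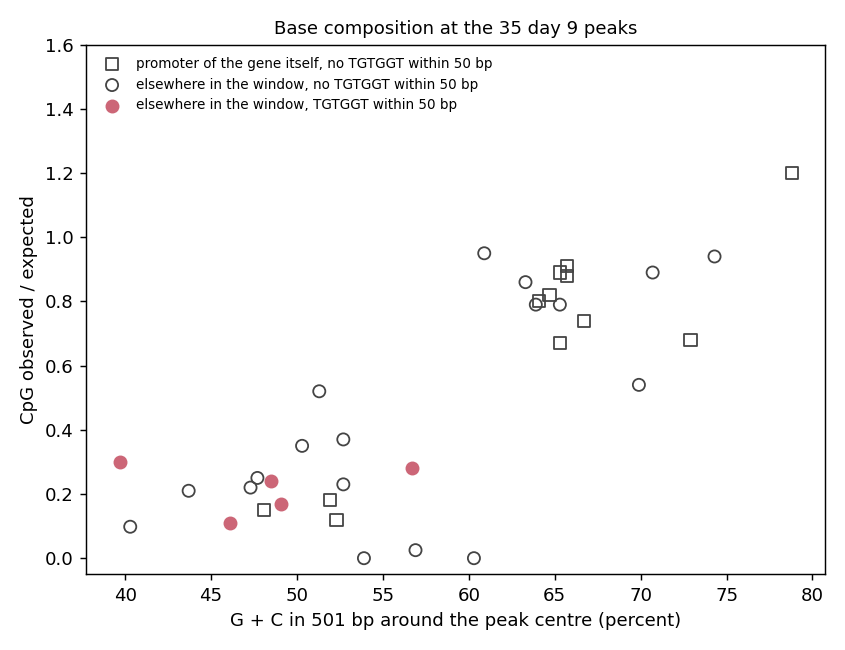
Each point is 1 of the 35 day 9 peaks at the 10 genes, with the percent of G and C around the centre on the horizontal axis and the CpG observed to expected ratio on the vertical axis, squares for peaks at the promoter of the gene itself and filled symbols for TGTGGT within 50 bp of the centre. The 5 filled points have CpG observed to expected ratios of at most 0.30, and none of the squares is filled.

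Partners of the inhibitors and pocket proteins. Cyclins, cyclin-dependent kinases, E2F factors with their dimer partners, the MuvB core that joins Rbl1 and Rbl2 in the DREAM complex, and regulators of the inhibitors formed a list of 32 genes. Of these, 31, 32 and 31 had a Runx2 peak in the window at days 0, 9 and 28, and 30, 31 and 30 had a promoter peak. Their median numbers of peaks were 2.00, 4.00 and 3.50. A promoter peak at all 3 time points was present at 29 of the 32. The same was true of 5 of the 10 inhibitor and pocket protein genes and of 41.5% of all genes.

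By role, promoter peaks were present at day 9 for 6 of 7 cyclins, 4 of 4 kinases, 10 of 10 E2F factors and dimer partners, 5 of 5 MuvB genes and 6 of 6 regulators. The share over all genes at day 9 was 51.6%. Ccna1, a cyclin best known from the germ line and named here because it was the exception at day 9, had no promoter peak in any list. Its window held 0, 1 and 0 peaks. E2f2 lacked a promoter peak at day 28 alone, and Lin37 at day 0 alone. Cdk4 and Cdk6, the kinases that INK4 proteins bind, had 2, 6 and 5 and 1, 10 and 3 peaks, with a promoter peak at each time point. Skp2 and Cks1b, which act in the breakdown of the Cdkn1b protein, also had a promoter peak at each time point.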

How the data were processed

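Runx2 ChIP-Seq and input libraries of MC3T3-E1 cells were sequenced by the authors, with base calls from CASAVA 1.6. The authors mapped reads to mm9 with Bowtie 0.12.8, combined both replicates of a time point and called peaks with MACS 1.4.1 against input at a p-value threshold of 1e-10. They deposited 1 list per time point with start, end and score, and the lowest deposited score was 100 in each list, which is the negative log10 of the threshold multiplied by 10. The lists hold no read counts, so depth per sample is unknown from them, and the input was not analysed here. The authors report the most raw reads for day 0 and the fewest for day 28.

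Peaks, windows, promoters and regions were computed from the deposited lists with GENCODE M1 on NCBIM37. Score percentiles are mid-ranks within a list. Motifs were read from the reference. Where an interval is given for a share, it is an exact Clopper-Pearson 95% interval, for counting error only. No test was made, since each time point has a single pooled list. All 10 genes are named. Every promoter peak and the highest peak of each gene and list are given with their positions, other peaks by rank, and a neighbouring gene is named where it lies at such a peak. Gm16197, 9630013D21Rik, Ccna1 and the other partners named were chosen after their values were seen. The members and lists were chosen with earlier results of these data known. Alternatives covered the score threshold, equal list lengths, the window, overlap, promoter, region and motif definitions. Scripts ran in Python 3.11.15 with SciPy 1.17.1 for intervals, NumPy 2.4.6 for ranks and Matplotlib 3.10.9 for figures, and overlap, merging and ranking were tested on simulated data.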

Additional observations from a re-analysis of the deposited data

How the results depend on the processing

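Of 67 values recomputed under 15 alternative settings, of which the 2 for the ranks of shared regions were chosen after seeing the data, 52 stayed within 1.5 times the reported count or within the reported interval, and 15 moved. With a p-value of 1e-50 required, the genes had 8, 20 and 18 peaks at days 0, 9 and 28, and 3 genes had a promoter peak at day 0. With the gene body alone there were 8, 18 and 16 peaks, and with 50 kb on each side 28, 66 and 48. With equal list lengths day 9 had 21 peaks, and day 28 had 22. With the peak centre required inside the promoter, 2 genes had a promoter peak at day 0. With the motif allowed anywhere in the peak, 48.6% of day 9 peaks held TGTGGT. Among regions with a peak in both lists, 18 ranked higher at day 28 than at day 9, and by percentile without the ties 5 did. Day 9 had the most peaks and day 0 the fewest under all settings for peak numbers but that of equal list lengths. The threshold of the lists limits what can be seen: a gene without a peak may hold weaker Runx2 signal. No paired analysis was possible because each time point has a single pooled list and no test was made.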
